A study of Mus musculus with 7 samples.

Results

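Secretory-stage enamel matrix genes are the genes of the proteins that ameloblasts release while they lay down the full thickness of the enamel. They were taken by name and comprise 4 genes, Amelx, Ambn, Enam and Mmp20, of the 25700 gene IDs in the count files. All 4 were found and all 4 passed the filter on low counts. The study asked how the loss of Nogo-A, a membrane protein of the reticulon family, in the dental epithelium alters the transcriptome of the lower incisor. K14;Nogo-A pups carried 1 K14cre allele with Nogo-A fl/fl, so that Cre is driven by the keratin 14 promoter in epithelial cells, and the comparison animals were labelled wt (wild-type below). The allele and Cre status of the wild-type pups is not given beyond this label. All pups were newborn (PN0), and 1 library held the Dispase-separated dental epithelium of the left and right lower incisors of 1 pup, with 4 K14;Nogo-A libraries (replicates 1, 2, 7 and 10) and 3 wild-type libraries (replicates 3, 8 and 9). Each replicate is called a pup below. The study's text calls the wild-type pups littermates, but the labels give no litter. One more wild-type animal in the study was not analysed here.

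Ameloblasts are tall epithelial cells that pass through a secretory and then a maturation stage. In the secretory stage they release amelogenin, the product of Amelx, which makes up most of the enamel matrix, together with ameloblastin (Ambn), a matrix protein that also bears on the attachment of the cells, and enamelin (Enam), a large glycoprotein found at the mineralization front. The metalloprotease enamelysin (Mmp20) cuts these proteins while they are being secreted. Mutations in AMELX, ENAM, AMBN and MMP20 cause amelogenesis imperfecta, an inherited enamel defect, in humans.

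The 4 genes lie on 3 chromosomes of GRCm38. Amelx (ENSMUSG00000031354) is on the minus strand of chromosome X from 169176114 to 169187200, inside the body of Arhgap6, which is on the opposite strand. Their exons share 0 bases. Ambn (ENSMUSG00000029288) and Enam (ENSMUSG00000029286) are neighbours on the plus strand of chromosome 5, from 88455991 to 88468531 and from 88487975 to 88506049, and 19444 bp lie between them. Mmp20 (ENSMUSG00000018620) is on the plus strand of chromosome 9 from 7628231 to 7674979. The merged exons span 999 bp in Amelx, 1919 bp in Ambn, 5490 bp in Enam and 3287 bp in Mmp20.

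The 100 bases before each annotated start are shown because the 4 genes were high and low in nearly the same libraries. They were taken from RefSeq (GRCm38.p6), 5′ to 3′ on the strand of the gene, with matches on either strand to CCAAT, the CCAAT box, and to TATAAA, a form of the TATA box, in capitals. In Amelx a match to each overlaps the other in 1 run of capitals. The windows are chrX:169187210-169187309 on the minus strand for Amelx, and on the plus strand chr5:88455891-88455990 for Ambn, chr5:88487875-88487974 for Enam and chr9:7628131-7628230 for Mmp20.
Amelx: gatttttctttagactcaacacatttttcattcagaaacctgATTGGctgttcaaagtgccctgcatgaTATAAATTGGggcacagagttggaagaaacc
Ambn: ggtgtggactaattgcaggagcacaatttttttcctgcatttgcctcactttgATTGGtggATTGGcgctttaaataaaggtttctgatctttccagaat
Enam: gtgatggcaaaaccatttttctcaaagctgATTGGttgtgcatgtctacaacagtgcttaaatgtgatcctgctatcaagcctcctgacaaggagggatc
Mmp20: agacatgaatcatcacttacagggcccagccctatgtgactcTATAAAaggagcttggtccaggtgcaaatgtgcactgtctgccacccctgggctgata
The longer word TGATTGG, searched on both strands and holding a CCAAT box read backwards, was found 60 to 54 bases before the start of Amelx, 49 to 43 before that of Ambn and 72 to 66 before that of Enam, and not in the 250 bases before Mmp20. Of 32851 RefSeq mouse promoters, 7.23% held it in the 250 bases before the start and 33.8% held a CCAAT box. The longer word lies over CCAAT matches already in capitals above, so it is no result independent of them. The TATA word was found 31 bases before the start of Amelx, 137 before that of Enam and 58 before that of Mmp20, and 12.4% of the promoters held it. The words GAANNTTC and TTCNNGAA, the core of heat shock elements, to which Hsf1 binds, were found in 6.69% of promoters for the first word and 7.17% for the second. Among the 4 genes only Ambn had one, the second of these, at 9 to 2 bases before its start. The search took exact words in 250 bases only. The study scanned the genes themselves with flanking sequence for Hsf1 motifs. It reported several potential sites in Amelx, Ambn, Enam and Klk4. Of 2 further words searched on both strands, TGTGGT, bound by Runx factors, was in 14% of promoters and in none of the 4, and TAATTA, bound by homeobox factors, was in 4.84% and in that of Mmp20, at 113 to 108 bases before its start. These are matches of letters and not measured binding sites.

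The libraries held 20929207 to 29728532 gene-assigned counts in the K14;Nogo-A pups and 21021158 to 41219439 in wild-type. Over 14791 tested genes the common biological coefficient of variation was 15.2%. The counts of Rtn4, the gene of Nogo-A, do not check the genotypes, since they also take in the Nogo-B and Nogo-C transcripts. Rtn4 was at 327 ± 21.3 CPM (CPM are counts per 1e+06 gene-assigned counts, scaled by TMM; SD, n = 4) in the K14;Nogo-A pups and 301 ± 39.1 CPM in wild-type (SD, n = 3). Genes of the Y chromosome (Uty, Kdm5d, Ddx3y and Eif2s3y, the Y-linked genes below) were high in K14;Nogo-A pup 1 and wild-type pups 3 and 8, with mean log2 CPM of 4.94 to 5.27, and at -3.71 to -3.04 in the remaining 4. The sex of the pups was not stated in the labels or methods. Krt14, an epithelial keratin gene, was high in all libraries, at 2276 to 2669 CPM in the K14;Nogo-A pups and 1468 to 2677 CPM in wild-type. Col1a1, a collagen gene of mesenchymal cells, had a higher CPM than Krt14 in every library, on a scale not set per length of transcript. It was at 6192 to 23012 CPM in the K14;Nogo-A pups and 15656 to 28134 CPM in wild-type, so the libraries also held mesenchymal RNA.

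Enamel matrix transcripts took a large share of the counts. Together the 4 genes took 3.24%, 10.1%, 9.79% and 7.6% of all counts in K14;Nogo-A pups 1, 2, 7 and 10, against 3.21%, 1.35% and 4.01% in wild-type pups 3, 8 and 9. The 95% Wilson intervals of the share of a single gene reached at most 0.01 percentage points to either side, which covers counting error only. The K14;Nogo-A libraries 2, 7 and 10 lay above all wild-type libraries in this share, and K14;Nogo-A pup 1 lay between wild-type pups 3 and 9. In bulk samples, fewer cells of a type and less RNA per cell cannot be told apart.

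Amelx had 26648, 72659, 72480 and 60391 CPM in K14;Nogo-A pups 1, 2, 7 and 10, against 25282, 10444 and 33878 CPM in wild-type pups 3, 8 and 9. More counts fell on Amelx than on any other gene in every K14;Nogo-A library and in wild-type pup 9. In wild-type pups 3 and 8 it ranked second, behind Col1a1, by counts, which are not set per length of transcript. The genotypes overlapped through K14;Nogo-A pup 1, which was just above wild-type pup 3. It averaged 58044 ± 21704 CPM in K14;Nogo-A (SD, n = 4) and 23202 ± 11855 CPM in wild-type (SD, n = 3), 2.5-fold apart.

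Ambn had 2133, 18589, 21029 and 10620 CPM in K14;Nogo-A pups 1, 2, 7 and 10, against 2751, 1408 and 2687 CPM in wild-type pups 3, 8 and 9. This gene had the widest spread within K14;Nogo-A, where its highest library was 9.86-fold above its lowest. In the wild-type libraries that factor was 1.95. In K14;Nogo-A pup 1 Ambn was below 2 of the 3 wild-type libraries. It averaged 13093 ± 8552 CPM in K14;Nogo-A (SD, n = 4) and 2282 ± 758 CPM in wild-type (SD, n = 3), which is 5.74-fold and the largest difference of the 4 genes.

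Enam had 2273, 11542, 7479 and 7456 CPM in K14;Nogo-A pups 1, 2, 7 and 10, against 3157, 661 and 3464 CPM in wild-type pups 3, 8 and 9. Here the wild-type libraries themselves were 5.24-fold apart, because pup 8 was far below the other 2. It averaged 7187 ± 3798 CPM in K14;Nogo-A (SD, n = 4) and 2427 ± 1537 CPM in wild-type (SD, n = 3), 2.96-fold apart.

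Mmp20, the protease, had the fewest counts of the 4 and differed least between the genotypes. It had 292, 708, 550 and 571 CPM in K14;Nogo-A pups 1, 2, 7 and 10, against 387, 175 and 430 CPM in wild-type pups 3, 8 and 9. K14;Nogo-A pup 1 was again inside the wild-type range. It averaged 530 ± 174 CPM in K14;Nogo-A (SD, n = 4) and 331 ± 137 CPM in wild-type (SD, n = 3), 1.6-fold apart.

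**Figure D1:**
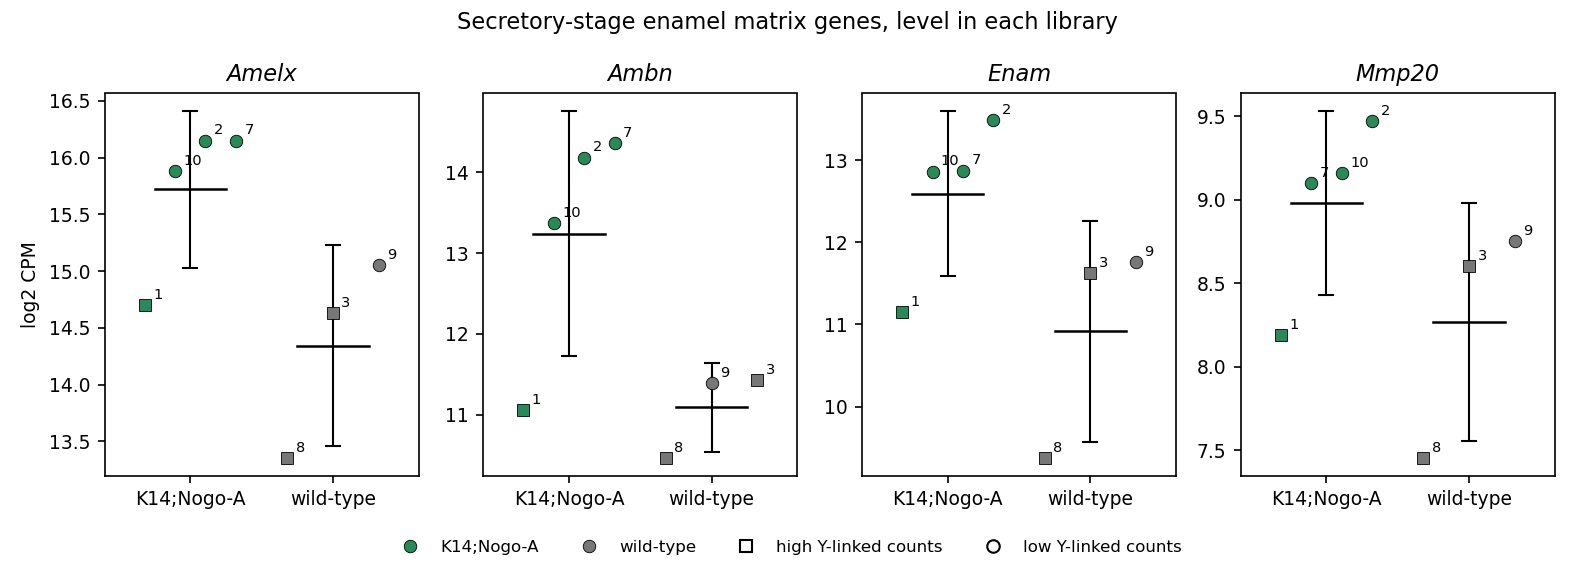
Level of each gene as log2 CPM (vertical axes, a separate range for each gene) in the 4 K14;Nogo-A and 3 wild-type libraries, numbered by replicate, with the mean and SD as bars and squares for libraries with high Y-linked counts. In each gene K14;Nogo-A pups 2, 7 and 10 lie above all wild-type libraries, K14;Nogo-A pup 1 lies within the wild-type range, and wild-type pup 8 is the lowest.

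No single gene of the 4 was called. At an adjusted p under 0.05 from edgeR's quasi-likelihood test, 0 of the 4 were higher or lower, and over all tested genes 0.0338% were called lower and 0% higher. Under the study's thresholds, which ask for a P up to 0.05 before adjustment and a log2 fold change beyond 0.5 in either direction, 2 of the 4 were higher, Amelx and Ambn, where 2.02% of all tested genes were. Of the 4, 0 were lower at these thresholds, where 2.74% of all tested genes were. At an unadjusted p under 0.05 the same 2 were higher, against 6.25% of all tested genes. DESeq2 called 1 of the 4 higher at an adjusted p under 0.05 (Ambn), where it called 0.892% of all tested genes higher. The likelihood-ratio test of edgeR and limma-voom called 0 of the 4, where 0.392% and 0% of all tested genes were called higher. By the study's thresholds each of these 3 tests had 3 of the 4 higher (Amelx, Ambn and Enam), against 2.29% of all tested genes in DESeq2, 2.4% in the likelihood-ratio test and 2.45% in limma-voom.

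The log2 fold change of Ambn was 2.52 with a standard error of 0.84 (adjusted p = 0.32 from edgeR). For Amelx it was 1.32 with a standard error of 0.50 (adjusted p = 0.35 from edgeR). Enam had 1.57 with a standard error of 0.79 and Mmp20 0.68 with a standard error of 0.40, neither past the study's thresholds in this test (adjusted p = 0.47 and adjusted p = 0.52 from edgeR). In the other 3 tests Enam was past them, with unadjusted p = 0.038 in edgeR's likelihood-ratio test, 0.013 in DESeq2 and 0.02 in limma-voom. In size these are among the largest of the dataset, since 99.6% of tested genes had a lower log2 fold change than Amelx, 99.8% a lower one than Enam and 98.2% a lower one than Mmp20. The spread within a genotype was also among the largest. The SD of log2 CPM was 0.69, 1.52, 1.01 and 0.55 for Amelx, Ambn, Enam and Mmp20 in the K14;Nogo-A pups and 0.88, 0.55, 1.34 and 0.71 in wild-type, where the median gene had 0.17 in both genotypes.

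For each of the 4 genes 3 of the 4 K14;Nogo-A libraries lay above all wild-type libraries, and for 0 of the 4 did the genotypes part without overlap, against 5.43% of all tested genes in the higher direction. Pup 1 was the library that overlapped in each case. Without it all 4 genes were past the study's thresholds, with log2 fold changes of 1.56, 2.88, 1.86 and 0.88 for Amelx, Ambn, Enam and Mmp20, and Ambn was called (adjusted p = 0.0093 from edgeR). Over all genes tested in that fit 3.07% were higher by the study's thresholds and 0.657% were called higher, more than with all 7 libraries. Leaving out K14;Nogo-A pup 7 or wild-type pup 3 left 0 of the 4 genes past them, and leaving out any 1 of the other libraries left 1. The log2 fold change of Mmp20 was 0.38 without wild-type pup 8. All 4 genes kept a positive sign in every fit that left out 1 library.

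Signal from Y-linked genes was unevenly spread over the genotypes. In each genotype the library lowest in these genes had high Y-linked counts (K14;Nogo-A pup 1 and wild-type pup 8). Wild-type pup 3, with high Y-linked counts, and pup 9, with low ones, were close in Ambn (2751 and 2687 CPM). They had 3157 and 3464 CPM of Enam, 387 and 430 CPM of Mmp20, and 25282 and 33878 CPM of Amelx. Among the libraries with low Y-linked counts, K14;Nogo-A pups 2, 7 and 10 and wild-type pup 9, the log2 fold changes were 1.02 for Amelx, 2.64 for Ambn, 1.35 for Enam and 0.51 for Mmp20, with a single wild-type library that is assumed to vary like the others. All 4 were past the study's thresholds there, against 1.86% of all tested genes. Enam had an adjusted p of 0.049 from edgeR, where 0.284% of all tested genes were called higher, but its spread came from the 3 K14;Nogo-A libraries alone, and wild-type pup 8, the lowest in all 4 genes, is not in that set. Among those with high Y-linked counts, K14;Nogo-A pup 1 and wild-type pups 3 and 8, they were 0.60, 0.06, 0.27 and 0.07, with standard errors of 0.85, 0.53, 1.63 and 0.87. Both splits were chosen after the data were seen, and the difference between them was not tested. When the Y-linked mean entered the fit over all 7 libraries the values were 0.83, 1.41, 0.88 and 0.31, and only Amelx was past the study's thresholds. The part of sex in these levels was not tested.

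**Figure D2:**
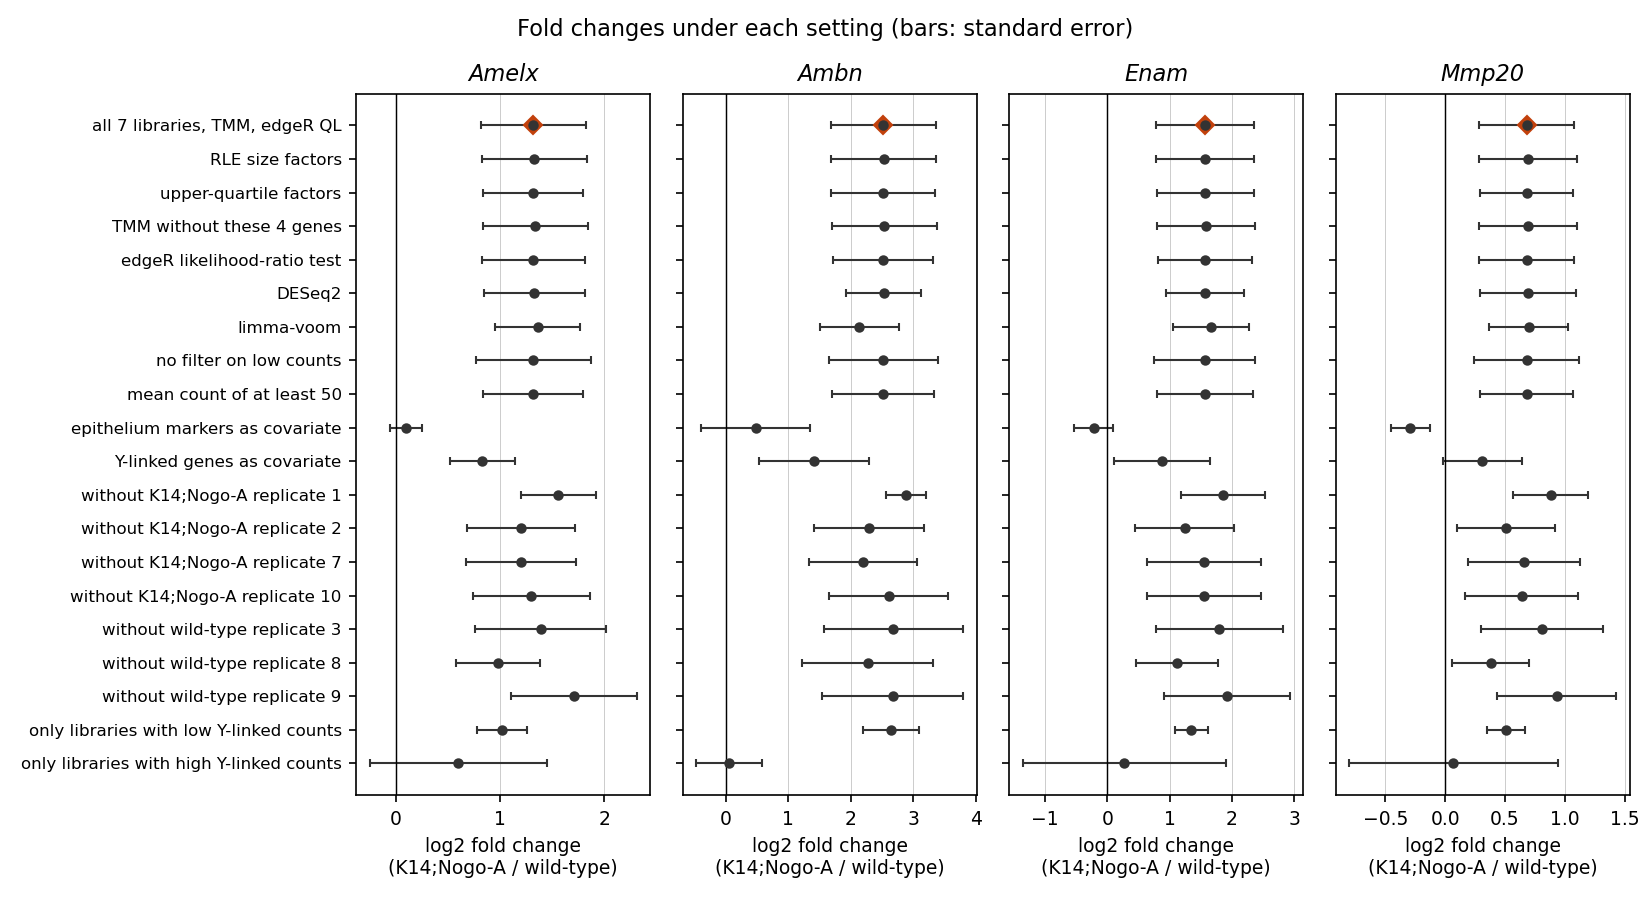
Log2 fold change of K14;Nogo-A over wild-type (horizontal axes) with its standard error for each gene under each setting, the diamond marking all 7 libraries with TMM and edgeR's quasi-likelihood test. The fit with mesenchyme markers as a covariate is not drawn. The values with epithelium markers as a covariate (0.10 for Amelx) and those in the libraries with high Y-linked counts (0.06 for Ambn) lie nearest to 0.

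The levels of the 4 genes can be compared with each other only per length of transcript. On that scale, in CPM per kilobase (RPKM), the order was Amelx, Ambn, Enam and Mmp20 in all 7 libraries. Amelx was at 58103 ± 21726 RPKM (SD, n = 4) in the K14;Nogo-A pups and 23225 ± 11867 RPKM (SD, n = 3) in wild-type, and Ambn was at 6823 ± 4457 RPKM in the K14;Nogo-A pups and 1189 ± 395 RPKM in wild-type. Enam was at 1309 ± 692 RPKM in the K14;Nogo-A pups and 442 ± 280 RPKM in wild-type. Mmp20 was at 161 ± 52.9 RPKM in the K14;Nogo-A pups and 101 ± 41.6 RPKM in wild-type. Ambn and Enam, next to each other in this order, were 2.69- to 8.04-fold apart within a K14;Nogo-A library and 2.22- to 6.09-fold apart within a wild-type library, and their ranges overlapped across libraries. Enam and Mmp20 were 2.26-fold apart in wild-type pup 8.

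Ratios between the genes within 1 library do not depend on how that library was scaled, and 6 such ratios were compared. None passed after adjustment over the 6. The ratio of Amelx to Mmp20 counts was 91.4, 103, 132 and 106 in K14;Nogo-A pups 1, 2, 7 and 10, against 65.3, 59.7 and 78.7 in wild-type pups 3, 8 and 9. This was the one ratio of the 6 in which the genotypes did not overlap, pup 1 included. On the log2 scale it differed by 0.67 (6.74 ± 0.22 in K14;Nogo-A, SD, n = 4, against 6.08 ± 0.20 in wild-type, SD, n = 3, two-sided exact permutation p = 0.029, adjusted p = 0.17 over 6 ratios). The p of 0.029 is the smallest that 4 against 3 libraries allow, and it does not pass after adjustment.

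Of the 6 ratios, that of Ambn to Mmp20 differed most between the genotypes. In counts it was 7.32, 26.2, 38.2 and 18.6 in K14;Nogo-A pups 1, 2, 7 and 10, against 7.1, 8.04 and 6.24 in wild-type pups 3, 8 and 9. Pup 1 of K14;Nogo-A had the wild-type ratio and the other 3 were at least 18.6. The log2 difference of 1.44 had a two-sided exact permutation p of 0.086 (adjusted p = 0.23 over 6 ratios). Amelx to Ambn had a negative difference, with 12.5, 3.91, 3.45 and 5.69 Amelx counts per Ambn count in K14;Nogo-A pups 1, 2, 7 and 10 and 9.19, 7.42 and 12.6 in wild-type pups 3, 8 and 9 (log2 difference -0.77, two-sided exact permutation p = 0.2, adjusted p = 0.30).

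Enam had a ratio to Mmp20 counts of 7.79, 16.3, 13.6 and 13.1 in K14;Nogo-A pups 1, 2, 7 and 10, against 8.15, 3.78 and 8.05 in wild-type pups 3, 8 and 9. The log2 difference was 0.96 (two-sided exact permutation p = 0.11, adjusted p = 0.23) and 0.60 without wild-type pup 8. The other pairs differed by less than the spread between libraries. Amelx to Enam differed by -0.30 on the log2 scale (two-sided exact permutation p = 0.46) and by -0.02 without wild-type pup 8. Ambn to Enam differed by 0.47 (two-sided exact permutation p = 0.43). Although Ambn and Enam lie side by side on chromosome 5, the ratio of their counts ranged from 0.776 to 2.81 over the libraries.

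**Figure D3:**
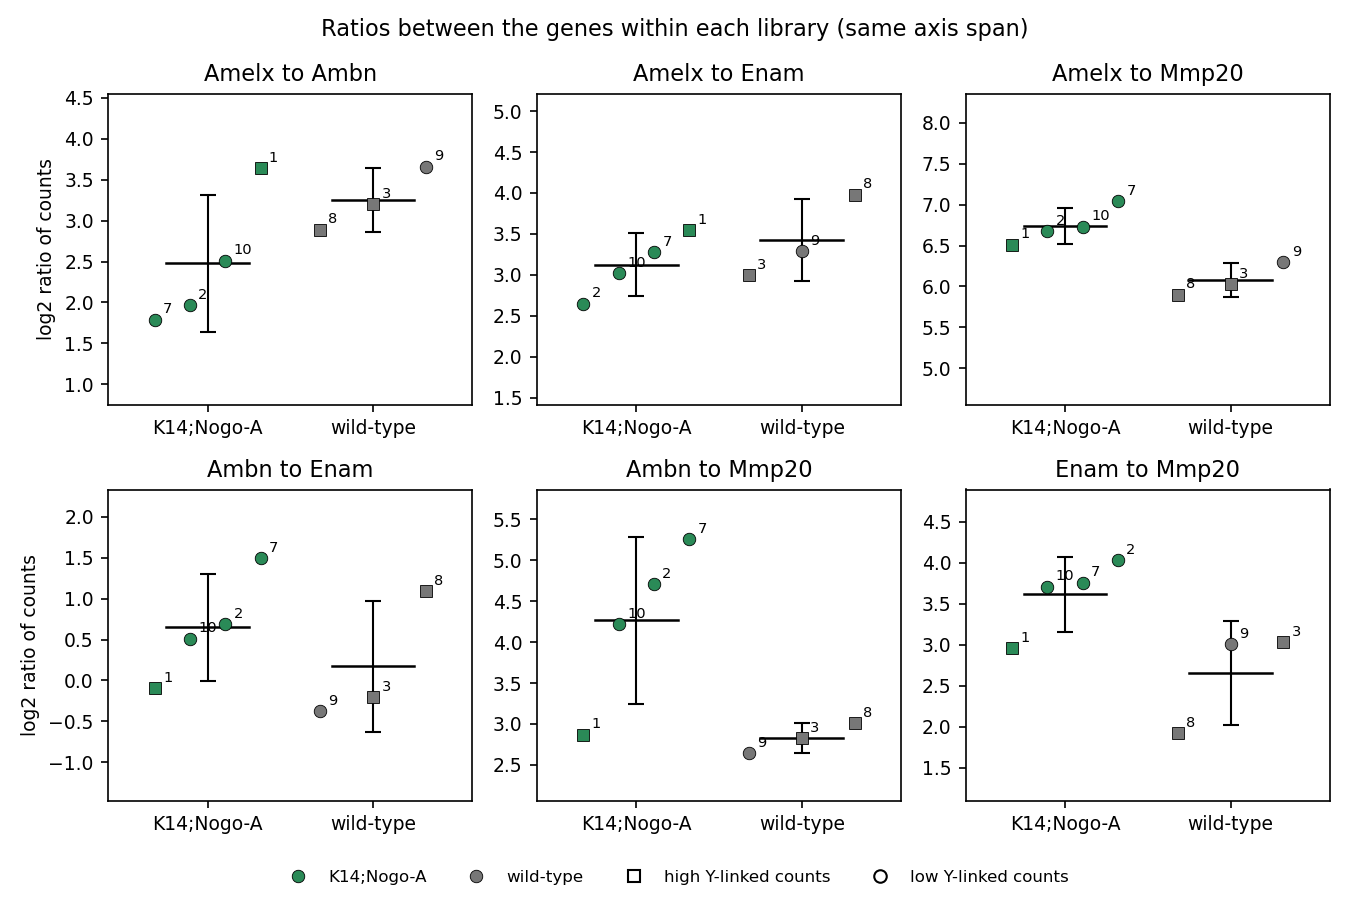
Log2 ratio of counts within each library (vertical axes, all of the same span) for the 6 pairs of genes, in K14;Nogo-A (n = 4) and wild-type (n = 3), with points numbered by replicate and bars for the mean and SD. Amelx to Mmp20 is the pair without overlap between the genotypes, and in Ambn to Mmp20 K14;Nogo-A pup 1 (2.87) lies among the wild-type libraries (2.64 to 3.01) and the others at 4.22 to 5.26.

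Epithelium markers moved with the enamel genes over the libraries. The mean log2 CPM of the mesenchyme markers split by genotype instead and was lower in K14;Nogo-A, pup 1 included. By the study's thresholds 5 of 16 epithelium markers were higher and none lower, where 2.02% of all tested genes were higher and 2.74% lower. The median log2 fold change of all tested genes was -0.01, and that of these markers was 0.30. Their mean log2 CPM was 8.05, 8.55, 8.51 and 8.43 in K14;Nogo-A pups 1, 2, 7 and 10 and 8, 7.66 and 8.23 in wild-type pups 3, 8 and 9. The libraries thus stood in the same groups as for the enamel genes, with K14;Nogo-A pups 2, 7 and 10 highest and wild-type pup 8 lowest. All 18 mesenchyme markers had a negative log2 fold change (median -0.53, 5 lower at the study's thresholds, 0 called). Their mean log2 CPM was 7.26 to 7.49 in the K14;Nogo-A pups and 7.88 to 8.07 in wild-type. Singly, 10 of the 18 were lower without overlap, against 6.09% of all tested genes. The summed CPM of the list overlapped, at 33520 in K14;Nogo-A pup 1 and 27098 in wild-type pup 8. The markers of odontoblasts, the dentin-forming cells that face the ameloblasts, were at 6.06 to 7.95 in the K14;Nogo-A pups and 7.52 to 8.14 in wild-type, and 1 of the 9 passed the study's thresholds, as lower. Their median log2 fold change was -0.65. None of these marker genes was at 0 in all libraries.

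Set against the epithelium markers of the same library, the enamel genes were still higher on average in K14;Nogo-A, without passing a test. Relative to these markers the log2 level of Amelx differed by 0.96, that of Ambn by 1.73, that of Enam by 1.25 and that of Mmp20 by 0.29 (two-sided exact permutation p = 0.086, 0.11, 0.11 and 0.4, adjusted p = 0.15, 0.15, 0.15 and 0.40 over the 4 genes). For Mmp20 the difference was 0.04 without wild-type pup 8. With the marker mean as a covariate in the edgeR fit the log2 fold changes were 0.10 with a standard error of 0.15 for Amelx, 0.48 with 0.87 for Ambn, -0.22 with 0.31 for Enam and -0.29 with 0.16 for Mmp20, and 0 of the 4 were past the study's thresholds. In the mesenchyme means the genotypes part without overlap, and this content and the genotype cannot be told apart. The part of the epithelial content in the levels was not tested further.

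**Figure D4:**
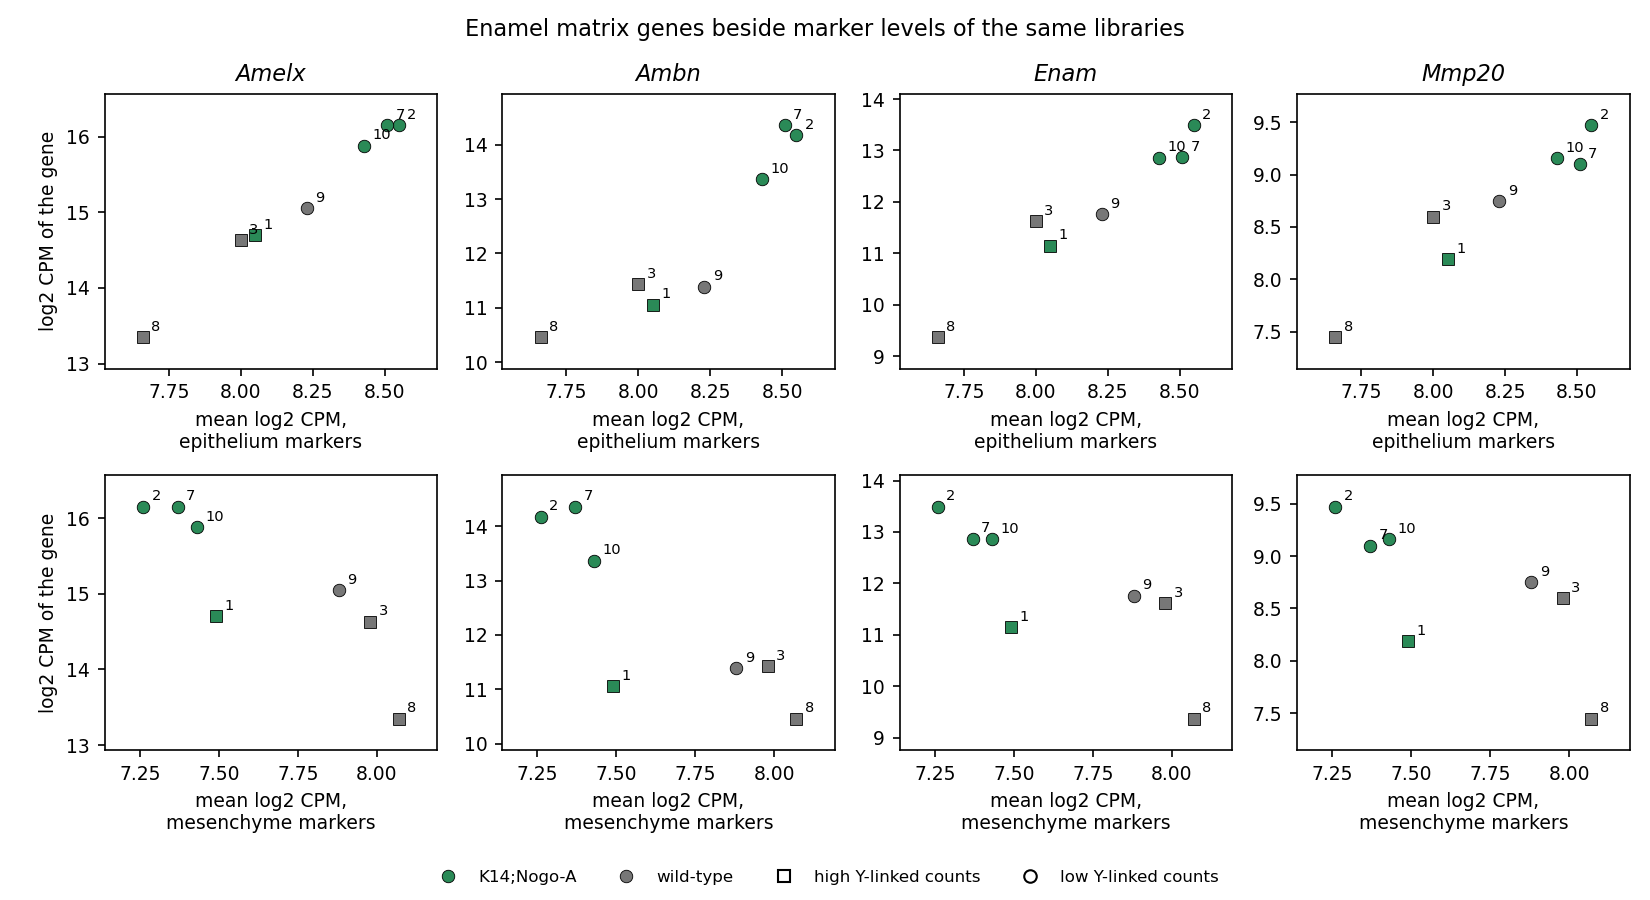
Log2 CPM of each enamel gene (vertical axes) against the mean log2 CPM of 16 epithelium markers (upper row) and 18 mesenchyme markers (lower row) in the 7 libraries, numbered by replicate and coloured by genotype. Wild-type pup 8 is lowest in the epithelium markers and in each enamel gene, and K14;Nogo-A pups 2, 7 and 10 are highest in both.

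Apart from Dspp, the other secreted proteins and proteases of enamel had at most 63.7 CPM in any library. From a list of 7, 6 were measured and 1, Scpppq1, was not analysed here. By the study's thresholds 1 of the 6 was higher and none lower, where 2.02% of all tested genes were higher and 2.74% lower. The median log2 fold change of the 6 was 0.27, and edgeR's quasi-likelihood test called 0 at an adjusted p under 0.05. Klk4, the serine protease of the maturation stage that degrades what Mmp20 has left, was the one past the thresholds, with a log2 fold change of 1.27 (SE 0.51, adjusted p = 0.35). It rested on few counts, with 1.85, 5.39, 7.67 and 1.95 CPM in K14;Nogo-A pups 1, 2, 7 and 10, against 2.34, 1.34 and 1.54 CPM in wild-type pups 3, 8 and 9. Only K14;Nogo-A pups 2 and 7 were above the wild-type range.

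Amtn, amelotin of the maturation-stage basal lamina and the nearest measured gene upstream of Ambn, had 5.72, 27.4, 63.7 and 8.39 CPM in K14;Nogo-A pups 1, 2, 7 and 10, against 4.77, 19.2 and 7.35 CPM in wild-type pups 3, 8 and 9. It was thus high in wild-type pup 8, the library lowest in the 4 secretory genes (log2 fold change 1.33 with an SE of 1.04). Odam, which shares that basal lamina, was at 43.2 to 51.8 CPM in the K14;Nogo-A pups and 33.8 to 49.6 CPM in wild-type, with its highest wild-type value also in pup 8. Tuft1, tuftelin, was at 22.4 to 29 CPM in the K14;Nogo-A pups and 20 to 21.8 CPM in wild-type, without overlap but with a log2 fold change of only 0.35 (SE 0.11, adjusted p = 0.27). Of all tested genes 5.43% were higher without overlap. Odaph was under 1.2 CPM in all libraries. Dspp, a dentin gene that odontoblasts make in large amounts, went the other way, at 1499 to 4024 CPM in the K14;Nogo-A pups and 2996 to 5142 CPM in wild-type (log2 fold change -0.76 with an SE of 0.41).

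Of 16 further genes whose loss causes enamel defects, 6 passed the study's thresholds as higher and 0 as lower. Of all tested genes 2.02% and 2.74% did. The median log2 fold change of the 16 was 0.54, and 0 were called. Acp4, an acid phosphatase of secretory ameloblasts, had 72.4, 306, 311 and 223 CPM in K14;Nogo-A pups 1, 2, 7 and 10, against 65.8, 23.7 and 84 CPM in wild-type pups 3, 8 and 9, nearly the arrangement of libraries seen for Amelx (log2 fold change 1.99 with an SE of 0.70). Relt, a receptor of the TNF family, had 35.6, 116, 96.7 and 90.9 CPM in K14;Nogo-A pups 1, 2, 7 and 10, against 37.9, 15.8 and 37.6 CPM in wild-type pups 3, 8 and 9 (log2 fold change 1.49 with an SE of 0.51). Itgb6, an integrin chain of epithelia, parted without overlap, with 26.2 to 53.7 CPM in the K14;Nogo-A pups and 12.8 to 25 CPM in wild-type (log2 fold change 0.94 with an SE of 0.29, adjusted p = 0.27). So did Rogdi, with 54.1 to 64.7 CPM in K14;Nogo-A against 31.4 to 49.5 CPM in wild-type (log2 fold change 0.63 with an SE of 0.14, adjusted p = 0.17). Of all tested genes 5.43% parted without overlap in this direction. Lamb3, a chain of laminin-332, the adhesive of the epithelial basement membrane, had a log2 fold change of 0.99 (SE 0.41), and the calcium exchanger Slc24a4, with at most 39 counts in a library, 1.68 (SE 0.67).

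**Figure D5:**
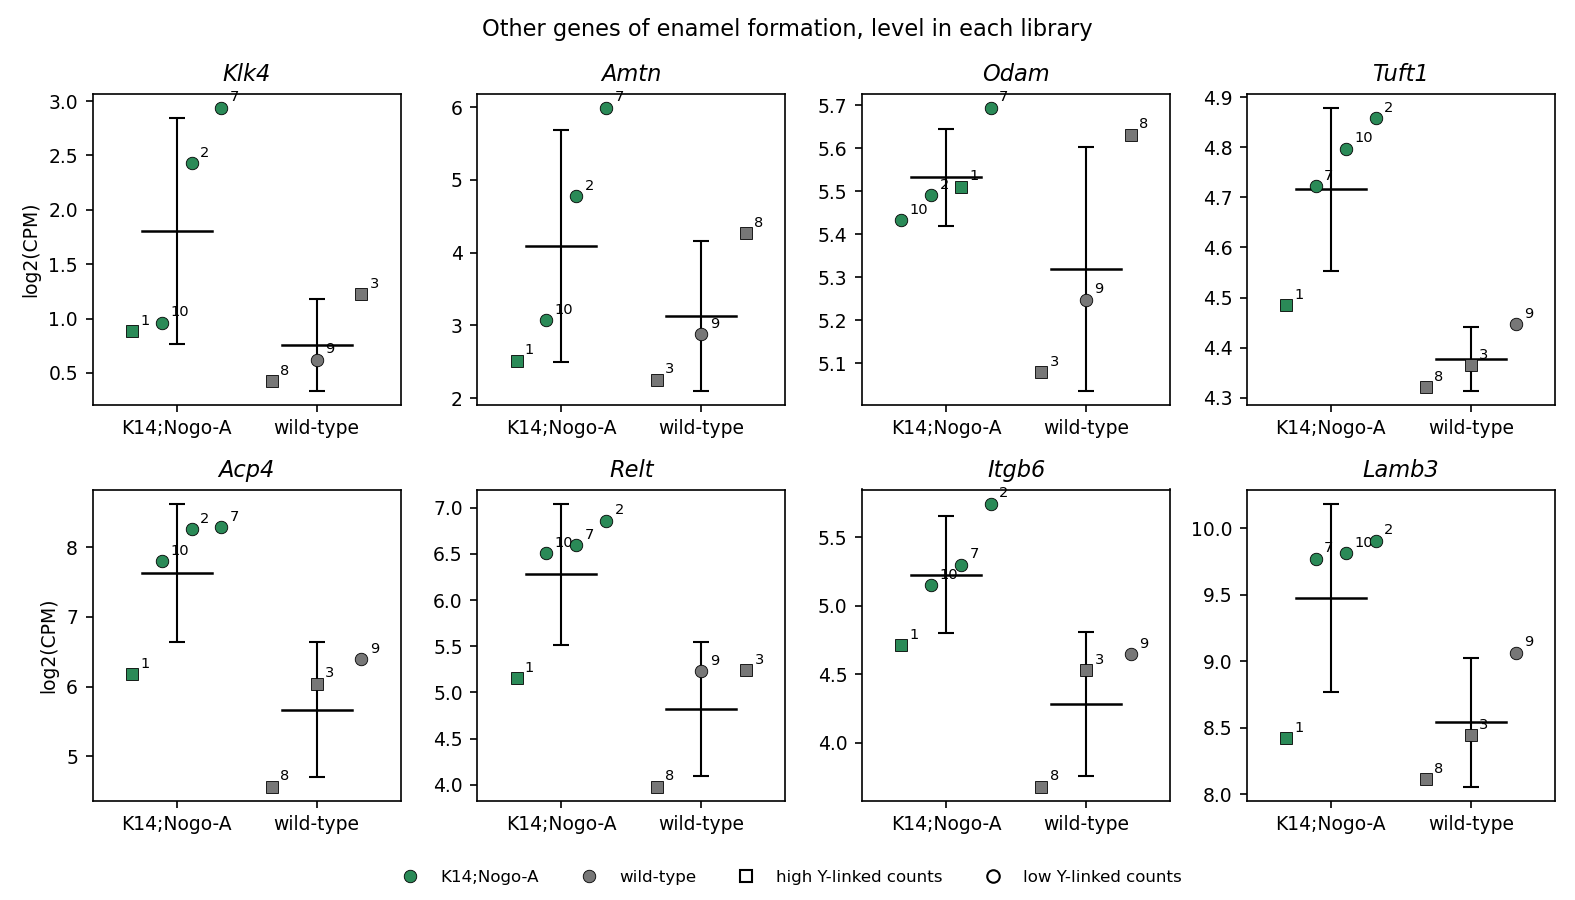
Level of 8 other genes of enamel formation as log2 CPM (vertical axes, a separate range for each gene) in K14;Nogo-A (n = 4) and wild-type (n = 3), with points numbered by replicate and bars for the mean and SD. Acp4, Relt and Lamb3 show K14;Nogo-A pup 1 at the wild-type level as the secretory genes do, and in Amtn and Odam wild-type pup 8 is the highest wild-type library.

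Transcription factors of enamel formation lay mostly close to 0 in their log2 fold changes. Of 24 tested, 0 passed the study's thresholds in either direction, where 2.02% of all tested genes were higher and 2.74% lower. For these 24 edgeR's quasi-likelihood test called 0, and their median log2 fold change was -0.04. The mean log2 CPM of the list lay between 6.46 and 6.57 in the K14;Nogo-A pups, and between 6.56 and 6.59 in wild-type. Sp6, epiprofin, which ameloblasts need to differentiate, was at 1469 ± 260 CPM in the K14;Nogo-A pups (SD, n = 4) and 1391 ± 223 CPM in wild-type (SD, n = 3) (log2 fold change 0.08 with an SE of 0.15). Msx2, a homeobox repressor of Amelx, had 0.03 (SE 0.11) and Dlx3, a homeobox activator of enamel genes, -0.15 (SE 0.11). Hsf1, the heat shock factor, was at 37.7 ± 1.78 CPM in the K14;Nogo-A pups (SD, n = 4) and 33.9 ± 2.47 CPM in wild-type (SD, n = 3) (log2 fold change 0.15 with an SE of 0.10). The smallest p of the list was that of Runx2, a runt factor of bone and teeth that mesenchymal cells also express, with a log2 fold change of -0.47 (SE 0.13, adjusted p = 0.22). Dlx6, Dlx4 and Msx1 followed with -0.41, -0.33 and -0.33.

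The genes next to the 4 on their chromosomes were mostly low or close in level between the genotypes. Arhgap6, in whose body Amelx lies, was at 2.56 ± 0.82 CPM in the K14;Nogo-A pups (SD, n = 4) and 2.92 ± 0.815 CPM in wild-type (SD, n = 3), with a log2 fold change of -0.17 (SE 0.29). Hccs and Msl3, on either side of Amelx, had 0.12 (SE 0.11) and -0.21 (SE 0.09, adjusted p = 0.35 from edgeR). Msl3 parted without overlap, at 39.1 to 41.4 CPM in the K14;Nogo-A pups and 44.4 to 49.2 CPM in wild-type. Of all tested genes 6.09% were lower without overlap. Jchain, next to Enam, and the protease genes Mmp27 and Mmp7, on either side of Mmp20, were at or under 3 counts in every library.

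The log2 CPM of 12662 genes, each with a mean of at least 50 counts, was compared with the mean of the 4 enamel genes. Over the 7 libraries the 10 closest had Pearson correlations of 0.990 to 0.998, given as a description only. A value above 0.95 was reached by 129 genes. The 10 nearest were Surf4, a cargo receptor for export from the endoplasmic reticulum, Rassf3, Nrn1l, Lama3, the alpha chain of laminin-332, Tmem59, Bnc1, a zinc finger protein of keratinocytes, Relt, Clu, the secreted chaperone clusterin, Slc11a2, an iron importer, and Slc24a3, a calcium exchanger. The choice of these genes sets their direction and their overlap between the genotypes, which are no further result. All 10 had positive log2 fold changes, 4 were past the study's thresholds (Rassf3, Nrn1l, Relt and Clu), 0 were called, and the genotypes overlapped in all 10. Clu reached 1412, 9280, 8459 and 7114 CPM in K14;Nogo-A pups 1, 2, 7 and 10, against 1593, 494 and 1819 CPM in wild-type pups 3, 8 and 9. Surf4 spanned a narrower range, 838 to 1175 CPM in the K14;Nogo-A pups and 671 to 932 CPM in wild-type, again with wild-type pup 8 lowest.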

How the data were processed

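Poly(A) RNA of the dental epithelium of 7 newborn pups was sequenced. The authors deposited unnormalized counts for each Ensembl gene, from bcl2fastq 2.19, STAR 2.7.1 on GRCm38 and featureCounts. The strand setting of the counting and the version of featureCounts are not given in the sources used here. Genes were named with GENCODE M21 (25664 of 25700 IDs). A gene was tested if 50% or more of the libraries of 1 genotype had 10 or more counts (14791 genes). Genes were fitted in edgeR 4.0.16 (R 4.3.3) by a robust quasi-likelihood model with TMM factors and genotype as its only term. The p-values were adjusted by Benjamini-Hochberg over all genes. Log2 CPM used a prior count of 2. RPKM were the TMM-scaled CPM per kilobase of merged exons. Permutation tests were exact and two-sided, over 35 assignments of the libraries, with a smallest p of 0.029. Fits were tested on counts simulated with the general trend of spread over genes, not with the wider spread of these 4 genes. Alternatives were RLE and upper-quartile factors, TMM without these 4 genes, the likelihood-ratio test, DESeq2 1.42.0, limma-voom 3.58.1, 2 filters, 3 covariates and each library left out, and, chosen after the data were seen, splits by Y-linked counts. The genes and lists were chosen with earlier results of these data known. Genes named are the 4, the other enamel proteins, the genes of 2 further lists past the study's thresholds or of smallest p, the 10 genes of most similar pattern and the chromosomal neighbours. The text also names Sp6, Msx2, Dlx3, Hsf1, Rtn4, Krt14 and Col1a1, outside that rule.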

Additional observations from a re-analysis of the deposited data

Results flagged for a closer look

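Among 39 sets of 4 K14;Nogo-A values, 7 had 1 library apart from the other 3 by Dixon's criterion, which chance alone gives in about 1 in 20 independent sets. That share is no measure here, since 5 of the 7 are among the 10 genes chosen for following the enamel genes, in which K14;Nogo-A replicate 1 is low. In all 7 the library was K14;Nogo-A replicate 1, and the values are log2 CPM. Of the genes near the 4 enamel genes in pattern, Surf4 was at 9.71 against 10.12 to 10.2 in the other K14;Nogo-A libraries, Rassf3 at 7.09 against 7.9 to 8.06, and Nrn1l at 0.67 against 3.69 to 4.2. Tmem59 was at 9.21 against 9.57 to 9.6 and Clu at 10.46 against 12.8 to 13.18. Of the enamel-defect genes, Lamb3 was at 8.42 against 9.77 to 9.91 and Rogdi at 5.76 against 5.99 to 6.02. The sets are not independent, since all come from the same 4 libraries, and none of Amelx, Ambn, Enam and Mmp20 was itself set apart by the criterion. The same library had high Y-linked counts and the highest odontoblast marker level of its genotype (mean log2 CPM 7.95). Their part in its position was not tested.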

How the results depend on the processing

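With RLE, upper-quartile or TMM factors without these 4 genes, the log2 fold changes of Amelx, Ambn, Enam and Mmp20 kept their sign and stayed uncalled. Ambn was called by DESeq2 (2.53, 1 of 4 genes called). With the epithelium markers as a covariate the sign turned for Enam (-0.22) and Mmp20 (-0.29), and 0 of the 4 were past the study's thresholds. With the mean of the mesenchyme markers it turned for all 4, to -2.63 for Amelx, -2.98 for Ambn, -4.14 for Enam and -2.5 for Mmp20. That fit extrapolates, because the genotypes do not overlap in the mean log2 CPM of these markers. The number of genes past the study's thresholds was 1 without a filter on low counts and 1 when Y-linked genes entered as covariate. It was 3 in the likelihood-ratio test, DESeq2 and limma-voom, with Enam added. In splits chosen after the data were seen it was 4, with 1 called (Enam, 1.35, against a single wild-type library), in the libraries with low Y-linked counts and 0 in those with high counts. Leaving out 1 library each, the log2 fold changes ranged from 0.98 to 1.71 for Amelx, 2.2 to 2.88 for Ambn, 1.12 to 1.92 for Enam and 0.38 to 0.93 for Mmp20, the number past the study's thresholds from 0 to 4 and the number called from 0 to 1. The causes were not tested. All 6 ratios and the 4 levels relative to epithelium markers kept their sign. No paired analysis was possible because the labels give no litter and the genotypes share no replicate numbers. Each pup gave 1 library, and 3 wild-type pups limit every test.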
